A study of Homo sapiens with 8 samples.

Results

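Noncoding genes whose introns or exons carry small nucleolar RNAs (snoRNAs) or microRNAs were compared between N/TERT cells treated with O/A and with ethanol. They were chosen by symbol, as the SNHG genes with GAS5, ZFAS1, DANCR and EPB41L4A-AS1 for the snoRNA hosts, and as the genes whose symbol starts with MIR and ends with HG for the microRNA hosts. This gave 116 of the 61806 genes in the deposited table, 32 snoRNA hosts and 84 microRNA hosts. Of these, 56 had at least 10 counts in at least 4 libraries and were tested, 28 in each class, among 14893 genes tested in all.

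N/TERT-1 is an immortalized line of human epidermal keratinocytes, here of wild-type genotype, and all libraries came from this one line. Ethanol, the solvent, was given to the cells of 4 libraries, and O/A, a mixture of the ATP synthase inhibitor oligomycin and the complex III inhibitor antimycin A, to the cells of the other 4, in an experiment on cholesterol and lysosomes during the removal of damaged mitochondria. The treatment lasted 4 hours. RNA was selected with oligo(dT), so the values are those of polyadenylated host transcripts, and neither mature microRNAs nor mature snoRNAs were measured.

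Most human snoRNAs are cut from the introns of a host gene after splicing. Box C/D snoRNAs guide 2′-O-methylation of ribosomal RNA, box H/ACA snoRNAs guide pseudouridylation, and scaRNAs, their relatives in the Cajal body, act on spliceosomal RNAs. The spliced exons of many noncoding snoRNA hosts begin with a terminal oligopyrimidine (TOP) tract, as ribosomal protein mRNAs do. Once ribosomes read them, their short reading frames expose them to nonsense-mediated decay (NMD), so that their level depends both on transcription and on translation. MicroRNA hosts serve as primary transcripts, from which Drosha and DGCR8 cut hairpins that Dicer trims to the mature microRNA, whose seed (bases 2 to 8) pairs with target mRNAs. In keratinocytes, miR-205 and the miR-200 family are known as markers of epithelial identity.

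Total counts ran from 17210404 to 20999927 per ethanol library and from 17689760 to 19263046 per O/A library. Libraries that shared a treatment differed by more than counting noise (chi-square per degree of freedom 1.69 to 5.13 over 13589 genes, against 46.0 to 55.6 between treatments), so none was a copy of another. The keratinocyte markers were high throughout, with KRT5 between 1094 and 1495 FPKM (fragments per kilobase of exon, scaled to the library total), whereas 14 of 17 markers of melanocytes, fibroblasts, endothelial and immune cells did not exceed 0.06 FPKM, with MLANA, TYR, COL1A2, PTPRC and CD207 listed at 0 in every library. The other markers were COL1A1 (2.38 to 2.94 FPKM in ethanol and 2.39 to 2.61 in O/A), PMEL (0.33 to 0.64 and 0.26 to 0.65) and CD68 (0.38 to 0.59 and 0.65 to 0.86), of which CD68 lay higher in every O/A library. Their part in the results was not tested. Of 14 transcripts of the integrated stress response, 13 rose in O/A (92.9%) and 1, ATF5, fell (7.14%), with a median log2(FC) of 2.21. Of all genes tested, 15.8% rose and 18.9% fell by the same rule, given below.

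The mature microRNAs encoded within the hosts that fell are printed here because they say which microRNAs these transcripts carry. RefSeq on GRCh38.p14 gave mature sequences for 27 of the 28 microRNA hosts tested, and capitals mark the seed. The first group comes from MIR17HG, the primary transcript of the miR-17-92 cluster, on chromosome 13. In it miR-17 and miR-20a shared the seed AAAGUGC, and miR-19a and miR-19b shared GUGCAAA.
miR-17-5p: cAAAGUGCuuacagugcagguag
miR-20a-5p: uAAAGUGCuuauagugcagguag
miR-18a-5p: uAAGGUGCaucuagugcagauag
miR-19a-3p: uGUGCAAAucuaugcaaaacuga
miR-19b-3p: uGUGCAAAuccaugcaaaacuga
miR-92a-3p: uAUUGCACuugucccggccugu

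Further hosts that fell carry the microRNAs printed next, while no mature sequence was used for MIR30DHG. MIR210HG carries miR-210, known for its induction in hypoxia, and MIR1915HG carries miR-1915. The paired microRNAs of MIR222HG shared the seed GCUACAU, and those of MIR29B2CHG shared AGCACCA. MIR193BHG carries miR-193b and miR-365a.
miR-210-3p: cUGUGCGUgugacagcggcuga
miR-1915-3p: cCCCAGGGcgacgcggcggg
miR-221-3p: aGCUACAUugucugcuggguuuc
miR-222-3p: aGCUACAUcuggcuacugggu
miR-29b-3p: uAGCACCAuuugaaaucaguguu
miR-29c-3p: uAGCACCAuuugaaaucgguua
miR-193b-3p: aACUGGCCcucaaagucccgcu
miR-365a-3p: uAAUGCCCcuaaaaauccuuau

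The let-7 seed GAGGUAG was carried by 5 of the hosts tested, which makes it the most widely shared seed here. MIR100HG and MIRLET7BHG, which fell, and MIRLET7A1HG, which was not called, all encode the same mature let-7a. MIRLET7IHG and MIR4458HG, the remaining hosts with this seed, were not called either. miR-205 is shown last, as the microRNA inside the most abundant microRNA host.
let-7a-5p: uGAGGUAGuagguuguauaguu
let-7b-5p: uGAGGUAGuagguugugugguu
let-7i-5p: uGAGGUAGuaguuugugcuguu
miR-4458: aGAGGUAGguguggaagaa
miR-100-5p: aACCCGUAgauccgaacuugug
miR-125b-5p: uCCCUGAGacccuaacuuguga
miR-205-5p: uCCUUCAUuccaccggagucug

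For the snoRNA hosts the sequence of interest is the start of transcription, where a TOP tract would lie. The windows below run from 15 bases before the first start that RefSeq lists to the 15th base of the transcript, on the strand of the gene (GRCh38.p14), with a pyrimidine tract in capitals. SNHG4 (chr5:139274086-139274115, plus strand), SNHG12 (chr1:28581859-28581888, minus strand), SNHG19 (chr16:2155344-2155373, minus strand), SNHG16 (chr17:76557749-76557778, plus strand) and SNHG5 (chr6:85678719-85678748, minus strand) fell in O/A, ZFAS1 (chr20:49278627-49278656, plus strand) and SNHG8 (chr4:118278747-118278776, plus strand) rose, and SNHG32 (chr6:31834901-31834930, plus strand) was not called.
SNHG4: ctcggctcccggctgCCCTTTCCCCTCCgg
SNHG12: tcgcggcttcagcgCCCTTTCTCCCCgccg
SNHG19: ctcgcccgcccctgtCTTTTCggggtcgag
SNHG16: cgcaggggcggtctcgcgttCTTTTCgagg
SNHG5: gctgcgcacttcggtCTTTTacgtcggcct
ZFAS1: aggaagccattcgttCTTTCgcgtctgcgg
SNHG8: aaggcctcggCCTTTCacattcgggaagcg
SNHG32: ctcgccattttagttCTTTTTgcgaagtgg

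A tract, taken as a C within 10 bases of the RefSeq start followed by at least 4 more C or T, was present in 16 of the 25 snoRNA hosts with a promoter entry (64.0%), in 13 of 26 microRNA hosts (50%) and in 9091 of all 27305 promoters (33.3%). It was found in 7 of the 8 snoRNA hosts that fell and have an entry, in 3 of the 6 that rose and in 6 of the 11 not called. None was found in GAS5, which was not called. Its RefSeq start lay 163 bases from the deposited gene start, farther than the 10 bases searched, so a tract at another start would be missed. The tract thus occurred on both sides of the comparison, and these shares are a description of the letters. For 11 of the 51 hosts with an entry, the RefSeq start lay more than 1000 bases from the deposited gene start, a distance chosen after the offsets were seen. These were SNHG12, SNHG14, SNHG20, MIR100HG, MIR29B2CHG, MIRLET7BHG, MIR34AHG, MIR4435-2HG, MIR4458HG, MIR646HG and MIR924HG, with the largest offset, 455875 bases, in MIR100HG. Their windows show 1 of several starts and may not be the start in use here. Without them a tract was found in 14 of 22 snoRNA hosts (63.6%) and 8 of 18 microRNA hosts (44.4%), and in 6 of the 7 snoRNA hosts that fell. In the window from 250 bases before to 50 bases after the start, searched on both strands, the E-box CACGTG was present in 2 of 25 snoRNA hosts (8.0%), SNHG7, which fell, and SNHG30, which rose, against 7.43% of all promoters. The shorter ACGTG, which every CACGTG contains, was in 5 of 25 snoRNA hosts (20%), 7 of 26 microRNA hosts (26.9%) and 21.6% of all promoters. MIR210HG and MIRLET7BHG were the hosts with ACGTG among the microRNA hosts that fell. Neither TTGCATCA (0.923% of all promoters) nor TGACGTCA (1.98%) was found in these windows of any of the 51 hosts with an entry.

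The 14893 genes were tested together with the quasi-likelihood method of edgeR. A call required a Benjamini-Hochberg adjusted p no higher than 0.05 and a log2(FC) beyond 0.25 in either direction. Of all genes tested, 15.8% were called higher and 18.9% lower, 34.7% in all. Among the 28 snoRNA hosts, 6 were called higher (21.4%) and 9 lower (32.1%), with a median log2(FC) of -0.03. Among the 28 microRNA hosts, 2 were called higher (7.14%) and 9 lower (32.1%), with a median of -0.09, and over all genes the median was 0.00. For all 1714 long noncoding RNA genes tested the shares were 17.2% higher and 13.9% lower. The share of lower calls was above both backgrounds in each host class, a difference that was not tested, while the medians lay near 0 and 30 of the 56 hosts were not called.

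**Figure D1:**
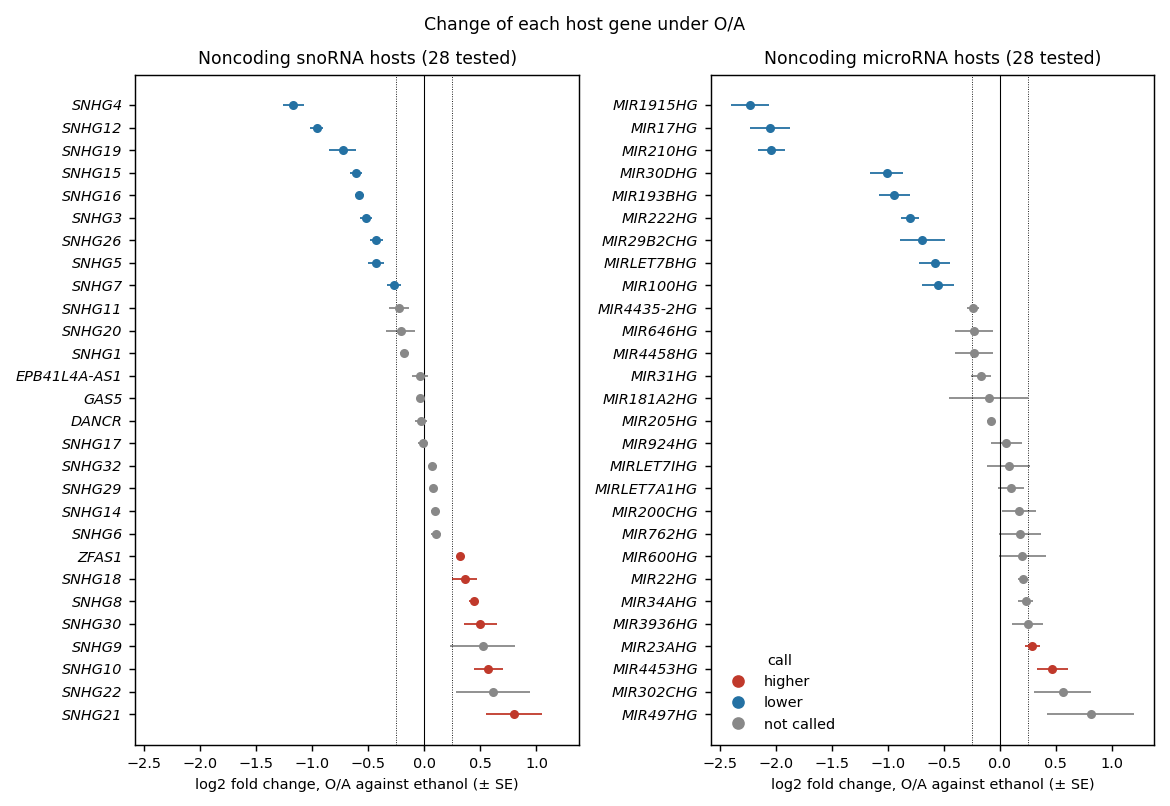
The log2(FC) of O/A against ethanol (horizontal axis, points with SE) for each of the 28 snoRNA hosts and 28 microRNA hosts tested, coloured by call, with dotted lines at an absolute log2(FC) of 0.25. The snoRNA hosts run from -1.17 (SNHG4) to 0.80 (SNHG21), and 3 microRNA hosts stand apart on the left, between -2.23 and -2.04.

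For 10 of the 28 snoRNA hosts every O/A library lay above every ethanol library, and for another 10 every O/A library lay below. Over all genes tested these separations were seen for 22.8% (above) and 24.8% (below), 47.6% in all. The microRNA hosts gave 1 and 11. The smallest p that an exact permutation test of 4 libraries against 4 can give is 0.0286, which each separated gene reaches, so single genes are described below by the edgeR test. Levels per library are TMM-scaled CPM, in which a count is divided by the effective library size, which compare libraries for 1 gene, and FPKM is used where genes are compared with each other. A fall in a bulk library can reflect fewer cells that hold the transcript or less of it per cell, and these cannot be told apart here.

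The snoRNA hosts that fell were led by SNHG4 (chromosome 5, 139274102 to 139284899, GRCh38), an H/ACA host that holds SNORA74A. It stood at 32.3, 32.2, 36.3 and 37.1 CPM in ethanol replicates 1 to 4 and at 12.3, 18.5, 14.7 and 15.7 CPM in the corresponding O/A replicates. The groups lay far apart, and the log2(FC) was -1.17 (SE 0.092, adjusted p = 2.14e-08, edgeR). SNHG12 (chromosome 1, 28578538 to 28583132) carries both kinds of snoRNA, among them SNORA44, SNORA61 and SNORD99. Its level was 39.2, 42.3, 35.3 and 43.8 CPM in ethanol and 20.1, 21.2, 19.9 and 21.8 CPM in O/A. All 4 O/A libraries were near 20 CPM and well below the lowest ethanol library, a log2(FC) of -0.96 (SE 0.059, adjusted p = 1.39e-18, edgeR). SNHG19, the host of SNORD60 and only 614 exonic bases long, was at 6.14, 6.06, 7.46 and 6.35 CPM in ethanol and at 4.54, 3.61, 3.71 and 3.79 CPM in O/A. Its fall of 0.73 on the log2 scale (SE 0.12) left the groups apart, with ethanol replicate 3 the highest.

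SNHG15, SNHG16 and SNHG3 fell to 0.654, 0.669 and 0.698 of the ethanol level. SNHG15, which holds SNORA9, was at 38.6, 38.0, 37.9 and 43.1 CPM in ethanol and at 26.0, 25.5, 26.9 and 24.8 CPM in O/A. SNHG16 (chromosome 17, 76557727 to 76670985), the host of the SNORD1 family, was the most abundant host to fall and went from 117, 117, 123 and 124 CPM to 85.3, 84.9, 77.9 and 73.4 CPM. In both, the O/A libraries varied little and lay below all ethanol libraries (log2(FC) -0.61, SE 0.053, and -0.58, SE 0.039). SNHG3, the host of SNORA73A and SNORA73B, had 48.9, 44.8, 48.7 and 52.1 CPM in ethanol and 29.7, 37.3, 35.0 and 33.7 CPM in O/A. Its groups did not overlap either (log2(FC) -0.52, SE 0.055).

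SNHG26 (SNORD93), SNHG5 (SNORD50B) and SNHG7 (SNORA17A and SNORA17B) fell less. SNHG26 stood at 28.5, 31.4, 28.4 and 33.0 CPM in ethanol and at 21.6, 23.3, 23.4 and 21.8 CPM in O/A, and SNHG5 at 18.6, 18.2, 20.4 and 19.7 against 15.5, 14.2, 14.2 and 13.2 CPM. Both had a log2(FC) of -0.43 and groups that did not overlap. SNHG7, at 25 to 26.7 CPM in ethanol and 19.6 to 22.9 in O/A, had a log2(FC) of -0.27 (SE 0.061), just past the threshold. Its call depended on single libraries, since it was -0.23 without O/A replicate 2 or O/A replicate 3 and -0.25 without ethanol replicate 1, each within the threshold.

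Of the snoRNA hosts that rose, ZFAS1 and SNHG8 were well expressed and the other 4 were low. ZFAS1 (chromosome 20, 49278178 to 49299600), the host of SNORD12, SNORD12B and SNORD12C, was at 161, 156, 155 and 154 CPM in ethanol and 198, 202, 191 and 191 CPM in O/A. The spread within each group was a few CPM, and the log2(FC) was 0.32 (SE 0.029, adjusted p = 7.37e-14, edgeR). SNHG8 (chromosome 4, 118278703 to 118285316), the host of SNORA24, was at 54.4, 56.0, 52.6 and 55.5 CPM in ethanol and at 72.9, 75.5, 77.0 and 71.8 CPM in O/A. All O/A libraries were higher, at a log2(FC) of 0.44 (SE 0.039, adjusted p = 5.38e-14, edgeR).

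SNHG21 had the highest log2(FC) of the snoRNA hosts, 0.80, but few reads. An ethanol library held 15 to 22 of them and an O/A library 23 to 35 (SE 0.25, adjusted p = 0.00539, edgeR). Its levels were 0.808, 1.23, 0.854 and 0.752 CPM in ethanol and 1.32, 1.72, 1.27 and 2.01 CPM in O/A, so that the groups nearly touched. SNHG10 was at 4.26, 3.42, 3.02 and 3.90 CPM in ethanol and at 5.35, 5.23, 5.72 and 5.52 CPM in O/A, a log2(FC) of 0.57 (SE 0.13). SNHG30, the host of SNORD7, was at 2.69, 2.47, 2.39 and 3.15 CPM in ethanol and at 3.80, 3.72, 3.34 and 4.43 CPM in O/A, a log2(FC) of 0.50 (SE 0.15). SNHG18, the host of SNORD123, was at 4.65 to 6.03 CPM in ethanol and 6.47 to 7.36 in O/A (log2(FC) 0.36, SE 0.11).

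**Figure D2:**
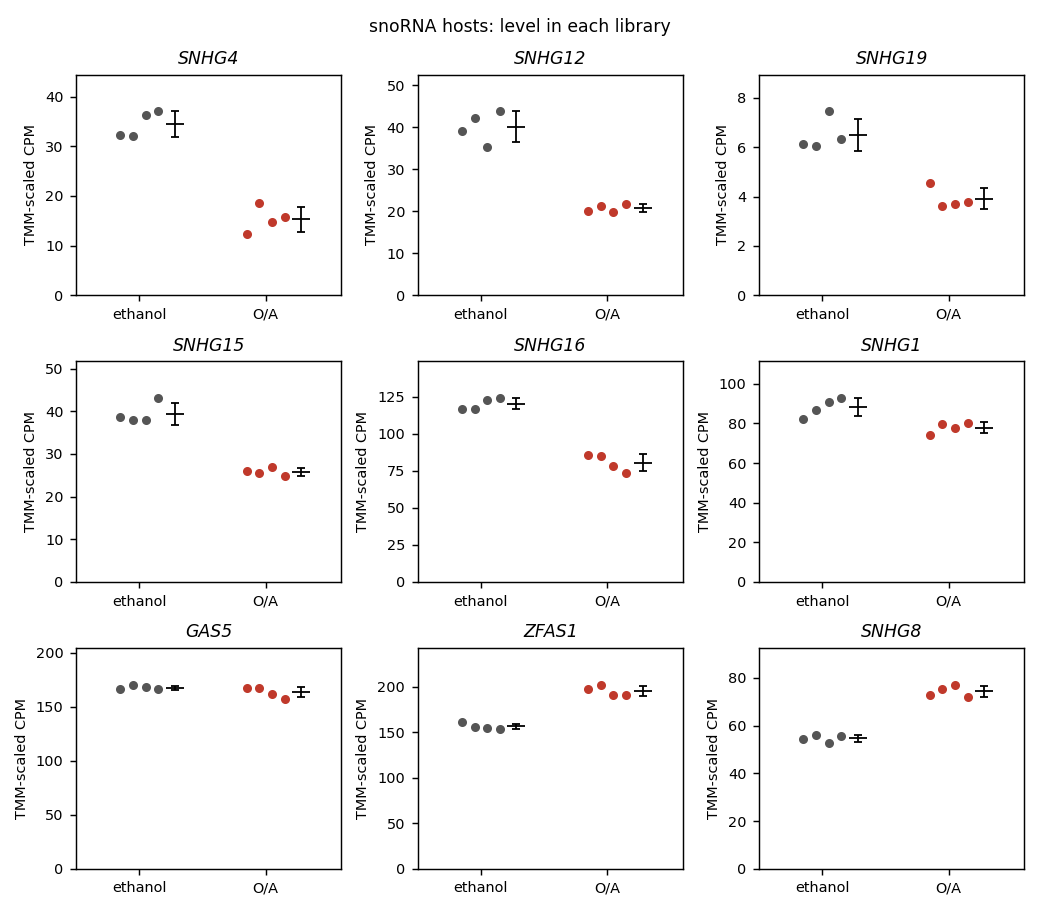
TMM-scaled CPM of 9 snoRNA hosts in each of the 4 ethanol and 4 O/A libraries (points), with the mean and SD beside them and each vertical axis starting at 0. SNHG4, SNHG12, SNHG19, SNHG15, SNHG16 and SNHG1 lie lower in every O/A library, GAS5 overlaps between the groups, and ZFAS1 and SNHG8 lie higher.

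The most abundant snoRNA hosts were close to level. SNHG29 (chromosome 17, 16438767 to 16480249), which holds SNORD49A, SNORD49B and SNORD65, had 46.6 FPKM ± 0.506 in ethanol and 47.6 ± 1.35 in O/A (SD, n = 4). In CPM it was at 413, 410, 414 and 406 in ethanol and 442, 444, 427 and 420 in O/A, which kept the groups apart at a log2(FC) of only 0.08 (95% interval 0.03 to 0.13). GAS5 (chromosome 1, 173858559 to 173868882), the host gene in which the link of TOP tracts, translation and NMD is best known, was at 166, 170, 168 and 166 CPM in ethanol and at 167, 167, 162 and 157 CPM in O/A. Its groups overlapped, and the interval of its log2(FC), -0.09 to 0.02 around -0.04, leaves no room for a fall of the size seen in SNHG16. SNHG32 (SNORD48 and SNORD52) was at 66.7, 61.9, 66.5 and 63.0 CPM in ethanol and at 70.2, 69.3, 67.4 and 64.7 CPM in O/A, also with overlap (log2(FC) 0.07, SE 0.040). SNHG1, which holds SNORD22 and SNORD25 to SNORD28 among others, was at 82.4, 86.7, 91.0 and 92.8 CPM in ethanol and 74.1, 79.7, 77.6 and 80.5 CPM in O/A. Its groups did not overlap, but its log2(FC) of -0.18 (SE 0.038, adjusted p = 7.72e-05, edgeR) was within the threshold.

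Among the other snoRNA hosts not called, SNHG14 (log2(FC) 0.09) and SNHG6 (0.10) had every O/A library above every ethanol library by a small margin. SNHG14, which spans the Prader-Willi region of chromosome 15 with the SNORD115 array, was at 90.4 CPM ± 3.91 in ethanol and 96.5 ± 2.67 in O/A (SD, n = 4). EPB41L4A-AS1 (-0.04), DANCR (-0.03) and SNHG17 (-0.01) were level, with SE of 0.069, 0.057 and 0.045. SNHG20 (-0.21, SE 0.13) and SNHG9 (0.52, SE 0.29, 10 to 16 counts in ethanol) had wide intervals and were not called. SNHG22 was barely above the filter, at 0.431 to 0.517 CPM in ethanol and 0.633 to 0.919 CPM in O/A, with no overlap and an estimate of 0.61 (SE 0.33). SNHG11 was at 14.4 to 15.1 CPM in ethanol and 9.88 to 15 in O/A, and its log2(FC) of -0.23 passed the threshold without O/A replicate 2 (-0.32) and without O/A replicate 3 (-0.26).

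The snoRNA hosts were sorted by the small RNA named inside them in the deposited table. The 12 with box C/D snoRNAs alone had 3 called higher and 4 lower. The 10 with box H/ACA snoRNAs alone had 1 higher and 4 lower. Over all genes tested, 15.8% were called higher and 18.9% lower, and a difference between the kinds was not tested. SNHG12, the host with both kinds, fell. The snoRNAs of GAS5 were not analysed here. The 4 hosts that hold a scaRNA in place of a snoRNA were SNHG10 (SCARNA13) and SNHG21 (SCARNA15), both called higher, SNHG22 (SCARNA17), not called at 0.61, and SNHG20 (SCARNA16), not called at -0.21. This last grouping was made after the values were seen.

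Among the microRNA hosts, MIR1915HG, MIR17HG and MIR210HG fell to 0.213, 0.241 and 0.243 of their ethanol level. MIR1915HG (chromosome 10, 21490272 to 21497260) was at 6.09, 5.38, 6.55 and 5.08 CPM in ethanol and at 1.55, 0.916, 0.847 and 1.61 CPM in O/A, a log2(FC) of -2.23 (SE 0.17, adjusted p = 6.8e-16, edgeR). MIR17HG (chromosome 13, 91347820 to 91354579) was at 4.15, 4.65, 5.35 and 4.14 CPM in ethanol and at 1.09, 1.40, 1.06 and 0.805 CPM in O/A, a log2(FC) of -2.05 (SE 0.18, adjusted p = 5.48e-14, edgeR). MIR210HG (chromosome 11, 565657 to 568457) was at 9.05, 10, 9.91 and 10.2 CPM in ethanol and at 2.47, 2.42, 2.06 and 2.59 CPM in O/A, a log2(FC) of -2.04 (SE 0.12, adjusted p = 3.51e-20, edgeR). The groups lay far apart in all of these hosts, although the O/A levels rest on few reads, 14 to 45 per library.

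MIR30DHG and MIR193BHG fell by about the same factor. MIR30DHG was at 5.55, 4.77, 4.56 and 6.25 CPM in ethanol and at 2.01, 2.91, 2.59 and 2.99 CPM in O/A (log2(FC) -1.01, SE 0.15). MIR193BHG was at 7.6, 5.89, 5.81 and 5.78 CPM in ethanol and at 3.22, 3.29, 2.49 and 4.08 CPM in O/A (log2(FC) -0.94, SE 0.14). Neither pair of groups overlapped, although ethanol replicate 1 stood above the other ethanol libraries in MIR193BHG.

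MIR222HG (X chromosome, 45745210 to 45770274) had the highest FPKM of the microRNA hosts that fell, 6.16 ± 0.300 in ethanol and 3.44 ± 0.399 in O/A (SD, n = 4). It was at 16.8, 17.8, 16.6 and 18.4 CPM in ethanol and at 8.4, 11, 10 and 10.7 CPM in O/A, with groups far apart (log2(FC) -0.80, SE 0.081, adjusted p = 3.27e-12, edgeR). MIR29B2CHG was near the detection filter, at 2.42, 2.30, 1.88 and 2.73 CPM in ethanol and 1.15, 1.45, 1.85 and 1.32 CPM in O/A, where O/A replicate 3 nearly reached the lowest ethanol library (log2(FC) -0.69, SE 0.20, adjusted p = 0.00291, edgeR).

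The let-7 hosts differed in their values. MIRLET7BHG was at 5.98, 5.10, 4.90 and 7.57 CPM in ethanol and at 3.51, 3.66, 4.08 and 4.65 CPM in O/A, lower throughout (log2(FC) -0.58, SE 0.14). MIR100HG, which also carries miR-100 and miR-125b, was at 3.88, 4.99, 4.84 and 4.37 CPM in ethanol and at 2.65, 3.29, 3.65 and 2.64 CPM in O/A, also lower throughout (log2(FC) -0.55, SE 0.14). MIRLET7A1HG, with let-7a, let-7f and let-7d, was at 5.27 to 7.16 CPM in ethanol and 5.29 to 8.05 in O/A (log2(FC) 0.10, 95% interval -0.13 to 0.33). The interval of MIRLET7IHG ran from -0.29 to 0.45 and that of MIR4458HG from -0.57 to 0.11, so a change like that of MIR100HG could not be told from none in MIR4458HG.

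In the 2 microRNA hosts called higher, the groups lay close together or overlapped. MIR23AHG (chromosome 19, 13823880 to 13842928), with miR-23a, miR-27a and miR-24, was at 19.8, 17.4, 18.2 and 20.2 CPM in ethanol and at 20.4, 24.8, 24.4 and 23.3 CPM in O/A. O/A replicate 1 was barely above the highest ethanol library, and the log2(FC) was 0.29 (SE 0.066). MIR4453HG was at 3.72, 3.14, 5.07 and 4.65 CPM in ethanol and at 4.77, 7.22, 6.09 and 4.88 CPM in O/A, so its groups overlapped (log2(FC) 0.47, SE 0.14, adjusted p = 0.00607, edgeR). On FPKM values neither was called. Without O/A replicate 1 the count of microRNA hosts called higher went from 2 to 5, and without O/A replicate 2 it went to 4.

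The most abundant microRNA hosts were not called. MIR205HG (chromosome 1, 209428817 to 209432848) had the highest FPKM of all hosts, 57.0 ± 2.98 in ethanol and 52.3 ± 2.33 in O/A (SD, n = 4). It was at 191, 195, 195 and 214 CPM in ethanol and at 178, 184, 197 and 193 CPM in O/A, with overlap (log2(FC) -0.08, 95% interval -0.15 to -0.01, adjusted p = 0.0564, edgeR). MIR22HG was at 67.5, 82.6, 74.2 and 75.7 CPM in ethanol and at 82.4, 86.7, 88.9 and 89.8 CPM in O/A, where ethanol replicate 2 reached into the O/A range (log2(FC) 0.21, SE 0.045). Without that library its log2(FC) was 0.27, past the threshold. MIR200CHG, the host of miR-200c and miR-141, was at 3.02, 3.70, 2.68 and 4.00 CPM in ethanol and at 3.62, 3.66, 4.02 and 3.79 CPM in O/A, with overlap (log2(FC) 0.17, SE 0.15).

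MIR31HG and MIR4435-2HG had every O/A library below every ethanol library without being called. MIR4435-2HG was at 32.8 to 36.7 CPM in ethanol and 29.0 to 30.2 in O/A (log2(FC) -0.24, SE 0.051), and without ethanol replicate 3 it passed the threshold at -0.26. MIR31HG was at 9.80 to 10.7 CPM in ethanol and 7.6 to 9.74 in O/A (log2(FC) -0.17, adjusted p = 0.105, edgeR). MIR34AHG, the host of the p53 target miR-34a, was at 17.8 to 20.7 CPM in ethanol and 19.6 to 25.6 in O/A (log2(FC) 0.23, SE 0.069). It passed the threshold without O/A replicate 1 (0.30), without O/A replicate 2 (0.26) or without ethanol replicate 4 (0.28). MIR302CHG, MIR497HG and MIR3936HG were also called when 1 library was left out, MIR302CHG at 0.66 without O/A replicate 2 and 0.81 without ethanol replicate 3 (0.56 with all), MIR497HG at 1.08 without O/A replicate 1 (0.81 with all) and MIR3936HG at 0.36 without O/A replicate 1 (0.25 with all). MIR646HG (-0.23), MIR181A2HG (-0.10), MIR924HG (0.06), MIR762HG (0.18) and MIR600HG (0.20) had groups that overlapped.

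Across both classes, the hosts that fell most were not the most abundant ones. Summed over the 28 snoRNA hosts, the level was 1557 to 1584 CPM in the ethanol libraries and 1491 to 1559 CPM in the O/A libraries, with SNHG29 contributing 27.3% of it. Over the 28 microRNA hosts the sum was 436.5 to 478.5 CPM in ethanol and 399.7 to 441.3 CPM in O/A, with MIR205HG contributing 43.9%. Both sums overlapped between the groups. By FPKM, MIR205HG and SNHG29 led in ethanol, followed by SNHG32 (36.3 ± 1.39), GAS5 (34.5 ± 0.464), MIR22HG (24.5 ± 2.05), SNHG1 (22.5 ± 1.25) and SNHG16 (21.1 ± 0.697, SD, n = 4 for each). The ranges of mean ± SD overlapped between the neighbours SNHG32 and GAS5, MIR22HG and SNHG1, and SNHG1 and SNHG16.

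**Figure D3:**
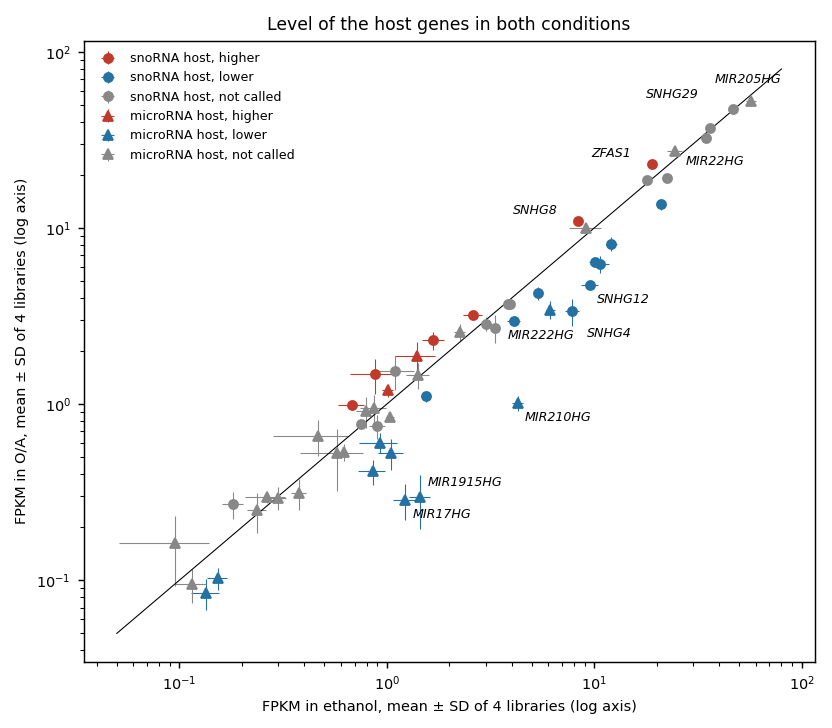
Mean FPKM of the 56 hosts tested in O/A (vertical, log axis) against ethanol (horizontal, log axis), with SD over 4 libraries and a line of equal level. The hosts above 30 FPKM lie close to the line, and MIR17HG, MIR210HG and MIR1915HG lie farthest below it, at 1.23 to 4.28 FPKM in ethanol.

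Neighbouring genes bear on how these counts can be read, because the sources used here do not say whether counting used strand. In GENCODE release 44, 12 of the 55 hosts tested and found there shared more than 25% of their exonic bases with exons of another gene. Among the called hosts these were SNHG21 (72.9% on the same strand), SNHG8 (37.6%, opposite PRSS12), ZFAS1 (36.4%, in part opposite ZNFX1), SNHG7 (30.3%, opposite DIPK1B) and SNHG16 (28.5%). PRSS12 itself was not called (log2(FC) 0.05, SE 0.049), and ZNFX1 fell by 1.00 on the log2 scale (SE 0.034) while ZFAS1 rose. An unnamed gene that shares bases with SNHG21 on the same strand held 51 to 78 counts per ethanol library. It was not called (log2(FC) -0.20, SE 0.16). SNHG3 shared 11% with RCC1, a coding gene on the same strand, and SNORA73A together, and RCC1 also fell (log2(FC) -0.30). MIR23AHG overlapped ZSWIM4 on the opposite strand over 12.1% of its exonic bases, and ZSWIM4 also rose (1.02, SE 0.086). MIR17HG shared 20.5% with an unnamed gene on the opposite strand, whereas MIR1915HG, MIR193BHG and MIR210HG shared no exonic base with any gene. SNHG4 shared 14% with MATR3, for which 2 table entries gave 0.03 (SE 0.11) and 0.16 (SE 0.28) and were not called. These entries held few reads, 114 to 148 and 9 to 22 counts per ethanol library. The part of overlapping reads in these results was not tested.

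Several hosts start within 1000 bases of the start of a coding gene on the opposite strand. In these pairs the values of the host and its partner were often unlike. SNHG1 starts 51 bases from SLC3A2, the heavy chain of amino acid transporters, which rose by 1.00 (SE 0.025) while SNHG1 was at -0.18. WDR81, which fell by 0.79 on the log2 scale, starts inside MIR22HG (0.21). SLC22A5, which fell by 0.44, starts inside MIR3936HG (0.25). ZBTB37 (-0.07, SE 0.19) starts inside GAS5 (-0.04), and neither of that pair was called. SNHG19, which fell by 0.73, starts 293 bases from TRAF7, which was level (0.06). SNHG9 (0.52) and the ribosomal protein gene RPS2 (0.11), SNHG22 (0.61) and ACAA2 (0.00), SNHG18 (0.36) and SEMA5A (0.19), and MIR4453HG (0.47) and FBXW7 (0.15) are further pairs in which the coding partner was not called.

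Small RNA genes nested in the hosts have rows of their own, and whether these received reads went with their place in the host. None of the 76 snoRNA genes and 53 microRNA genes that lie inside an exon of some isoform of their host had a count in any library, not even in abundant hosts, so their zeros do not show that the RNA was absent. Of those in an intron or at the edge of an exon, 14 of 64 snoRNA genes and 13 of 78 microRNA genes had any count. Those that passed the filter numbered 4. MIR205, a row of 110 bases within MIR205HG, had 22, 27, 28 and 48 counts in ethanol and 10, 14, 12 and 22 in O/A (log2(FC) -1.04, SE 0.26, adjusted p = 0.000759, edgeR), while MIR205HG itself was at -0.08. SNORA73B in SNHG3 had 19, 10, 13 and 32 counts in ethanol and 8, 7, 10 and 11 in O/A (-0.96, SE 0.33, adjusted p = 0.0111, edgeR). For both, the lowest ethanol library was at or below the highest O/A library in raw counts. SNORA71B in SNHG17 (-0.25, SE 0.27) and MIR762 in MIR762HG (0.01, SE 0.32) were not called. No value here is a level of the mature small RNA.

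The genes that process or share the fate of these transcripts are given beside the hosts. Of 20 NMD factors, all tested, 2 rose (10%) and 4 fell (20%), against 15.8% and 18.9% of all genes. SMG1, the kinase of UPF1, was at 0.33 (SE 0.10) with groups that overlapped, and SMG5 at 0.27 (SE 0.030). DHX34 (-0.39) and UPF2 (-0.29) fell most, followed by SMG6 (-0.27) and the helicase UPF1 (-0.26). The median was -0.07, and no log2(FC) in the list was beyond -0.39 or 0.33. Among cytosolic ribosomal protein genes, 56 of the 64 with a promoter entry (87.5%) had a pyrimidine tract as defined above. Of the 81 tested, none was called in either direction by edgeR or DESeq2. At an unadjusted p under 0.05, 59 were higher and 0 lower by edgeR, all with a log2(FC) inside the threshold. Their median log2(FC) was 0.09 and their range -0.05 to 0.23. In 38 of them every O/A library lay above every ethanol library, which was seen for 22.8% of all genes. The snoRNA hosts spread far wider than this, from -1.17 to 0.80. The lower end was SNHG4 (SE 0.092, 575 to 789 counts per ethanol library). The upper end was SNHG21, which is imprecise (SE 0.25, 15 to 22 counts per ethanol library).

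Of 18 snoRNP proteins, which build and modify the particle around a snoRNA, none was called higher by edgeR or DESeq2. By edgeR 1 was higher at an unadjusted p under 0.05. The 6 that fell made up 33.3%, against 18.9% of all genes, of which 15.8% rose. NUFIP1, an assembly factor, fell by 0.74 on the log2 scale (SE 0.072), and NOP56, a core protein of box C/D particles, by 0.64 (SE 0.027). NOP58 (-0.41), SHQ1 (-0.39), DKC1, the pseudouridine synthase (-0.34), and NOLC1 (-0.26) were the others. Coding genes that host snoRNAs in their introns showed 3 higher (9.68%) and 9 lower (29.0%) of 31, against 15.8% and 18.9% of all genes. CLK1 (0.98, SE 0.037) and HSPA9 (0.50, SE 0.025) rose most, and PPAN (-0.81, SE 0.097) and NOP56 fell most. NOP56, DKC1 and RCC1 recur across these lists or as neighbours of a host, so the lists are not independent of each other.

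On the microRNA side, 3 of the 19 processing and Argonaute genes tested rose (15.8%) and 8 fell (42.1%), against 15.8% and 18.9% of all genes. AGO3 (0.39, SE 0.090), with groups that overlapped, and PRKRA (0.37, SE 0.050) rose most, and AGO2 was at 0.36. LIN28B, an inhibitor of let-7 maturation, fell by 1.28 on the log2 scale (SE 0.25) from a low level of 28 to 47 counts per ethanol library. TNRC6A, the Argonaute partner GW182, fell by 0.81 (SE 0.038). The microprocessor genes DGCR8 (-0.53, SE 0.045) and DROSHA (-0.29, SE 0.034) and the nuclease gene DICER1 (-0.45, SE 0.043) fell as well. Of 24 coding microRNA hosts tested, 2 rose (8.33%) and 6 fell (25%), against 15.8% and 18.9% of all genes. PANK3 (0.34) and ZRANB2 (0.28) rose. The falls were led by PPARGC1B (-2.65, SE 0.11), which holds miR-378a, and PANK1 (-1.45, SE 0.087), which holds miR-107. Of 17 other long noncoding RNAs with no host name, 7 rose (41.2%), and the median was 0.34. For all long noncoding RNA genes the shares were 17.2% higher and 13.9% lower. None of the 17 was called lower by edgeR or DESeq2, and 0 were lower at an unadjusted p under 0.05. The highest were CRNDE (1.89, SE 0.068) and NEAT1 (1.76, SE 0.12).

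**Figure D4:**
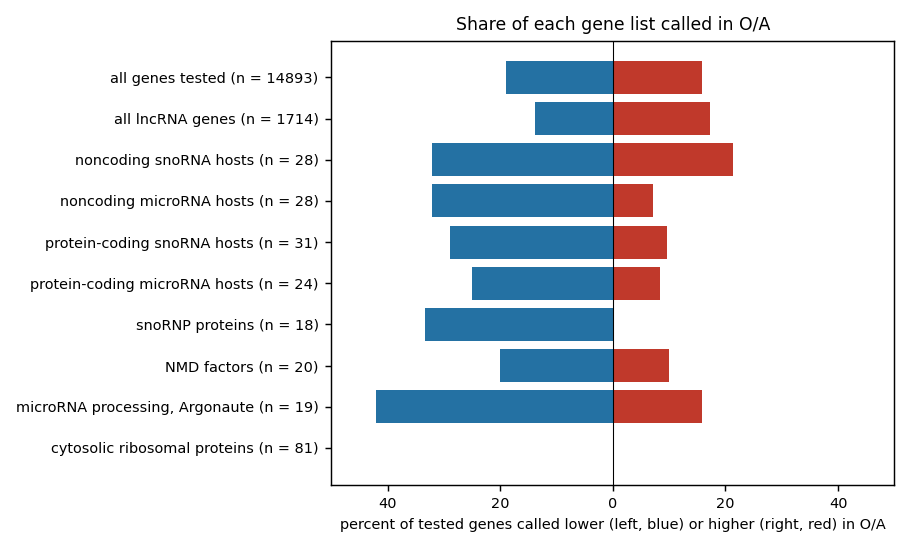
Percent of tested genes called lower (left, blue) or higher (right, red) in O/A for each gene list, with the number tested in brackets. The snoRNA hosts (32.1% lower, 21.4% higher) and microRNA hosts (32.1% lower, 7.14% higher) stand beside all genes (18.9% and 15.8%), and the ribosomal protein genes have no call on either side.

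The hosts left out for low counts were 4 snoRNA hosts and 56 microRNA hosts. In an edgeR fit without the filter, which took in the 34 of them with any read, 0 were called and 2 had an unadjusted p under 0.05, MIR3677HG (log2(FC) -1.11, adjusted p = 0.145) and MIR1302-9HG (0, 1, 1 and 2 counts in ethanol and 0 in every O/A library, adjusted p = 0.158). SNHG27 was at 0 in every library, and SNHG25, SNHG28 and SNHG31 did not exceed 7 counts. The highest count of any microRNA host left out was 13. Those with 0 counts in all libraries, 25 in number, were MIR1-1HG, MIR122HG, MIR124-2HG, MIR133A1HG, MIR217HG, MIR219A2HG, MIR223HG, MIR3147HG, MIR325HG, MIR365BHG, MIR3663HG, MIR3667HG, MIR3976HG, MIR4290HG, MIR4307HG, MIR4713HG, MIR493HG, MIR503HG, MIR548A1HG, MIR548XHG, MIR663AHG, MIR670HG, MIR7-3HG, MIR7515HG and MIR99AHG. Those with some counts were MIR124-1HG, MIR1302-2HG, MIR1302-9HG, MIR130AHG, MIR137HG, MIR142HG, MIR155HG, MIR181A1HG, MIR194-2HG, MIR202HG, MIR2052HG, MIR2117HG, MIR3142HG, MIR3150BHG, MIR34BHG, MIR3659HG, MIR3677HG, MIR3681HG, MIR378D2HG, MIR3945HG, MIR4280HG, MIR4300HG, MIR4422HG, MIR4432HG, MIR4500HG, MIR4527HG, MIR4733HG, MIR5689HG, MIR583HG, MIR9-1HG and MIR9-3HG.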

How the data were processed

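The 8 libraries were mapped to ethanol or O/A, replicates 1 to 4, from their titles, and the treatment time of 4 hours was taken from the study's text. The authors aligned reads to GRCh38.p13 with HISAT2 2.0.1 and made the deposited counts with HTSeq 0.6.1. The Ensembl release and strand setting are not given in the sources used here. The deposited FPKM values lay within 0.005 of values recomputed from count, exonic size and library total. The authors' table of their own DESeq2 comparison (fold changes and p-values) was not used.

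The test on counts used edgeR 4.0.16 under R 4.3.3 (TMM scaling, robust quasi-likelihood test, Benjamini-Hochberg adjustment), keeping genes that reached 10 counts in 4 or more of the 8 libraries. The test was checked on simulated data. The SE is the absolute log2(FC) divided by the square root of the F statistic. Alternatives were DESeq2 1.42.0, limma 3.58.1 on log2(FPKM + 0.1) and log2(FPKM + 1), median-ratio and quantile scaling, no filter, a replicate block, other thresholds and each library left out.

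Every tested host is named, with values per library for up to 12 called hosts of each class with the largest change and the 5 with the highest FPKM. Of other lists the extreme called genes are named. The hosts and lists were chosen with earlier results of these data known. Mature microRNAs and start sites come from RefSeq (GRCh38.p14), and overlaps from GENCODE release 44, where 115 of the 116 hosts were found. No promoter entry was used for SNHG6, SNHG9, SNHG15, MIR30DHG and MIR181A2HG. Replicates were stated to be independent experiments. Intervals of log2(FC) are 95%.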

Additional observations from a re-analysis of the deposited data

Results flagged for a closer look

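In 4 of 112 groups of 4 libraries (56 hosts in 2 conditions), 1 library stood apart from the other 3 by Dixon's test, where chance alone gives about 5.6 such groups. MIR193BHG had 7.6 CPM in ethanol replicate 1, against 5.78 to 5.89 in the other ethanol libraries. SNHG15 had 43.1 CPM in ethanol replicate 4, against 37.9 to 38.6. For MIR924HG it was O/A replicate 2, at 4.69 CPM, with the others between 3.56 and 3.71. MIR4458HG had 2.37 CPM in ethanol replicate 1, against 2.75 to 2.82.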

How the results depend on the processing

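Of the 26 called hosts, 19 kept their call in all 15 alternative fits (thresholds aside) and none changed direction. MIR100HG, MIR29B2CHG, SNHG10 and SNHG18 lost it on log2(FPKM + 1), MIR23AHG and MIR4453HG on both FPKM scales, and SNHG7 under quantile scaling and without some libraries. In 8 of the 30 uncalled hosts some fit gave a call.

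With an absolute log2(FC) over 1, snoRNA hosts had 0 higher and 1 lower, microRNA hosts 0 higher and 4 lower, and all genes 382 higher and 415 lower. Without a fold threshold, 4 microRNA hosts and 3868 genes were higher. MicroRNA hosts called higher, 2 in the report, were 0 on log2(FPKM + 0.1) and on log2(FPKM + 1), 4 under quantile scaling and 2 to 5 with 1 library left out. On log2(FPKM + 1), 1514 genes were higher. The median of the snoRNA hosts, -0.03, was -0.08 on log2(FPKM + 0.1) and -0.06 on log2(FPKM + 1), where the median of all genes also shifted, by -0.045 and -0.042. The median of the microRNA hosts, -0.09, ranged from -0.13 to 0.01 with 1 library left out, and 0.01 was reached without ethanol replicate 4. The cause was not tested for these.

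Some uncalled hosts near 0 changed sign. Under quantile scaling SNHG29 was at -0.032 and EPB41L4A-AS1 at 0.011. MIR924HG was at -0.012 on log2(FPKM + 0.1) and -0.0031 on log2(FPKM + 1). With 1 library left out, DANCR ranged from -0.08 to 0.014, SNHG17 from -0.03 to 0.034, MIR181A2HG from -0.37 to 0.10, MIR924HG from -0.034 to 0.13 and MIRLET7IHG from -0.096 to 0.20.

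Whether libraries with the same replicate number are pairs is not stated, and little sign of pairing was seen. Deviations of same-numbered libraries from their group means correlated at 0.0389, -0.00212, -0.0226 and 0.0675. In a fit with the replicate block, 5160 genes were called and 5117 of these were shared with the fit without it. The snoRNA hosts again had 6 higher and 9 lower, and the microRNA hosts 2 higher and 9 lower. Hosts with few counts, such as SNHG21, SNHG22, SNHG9, MIR497HG and MIR181A2HG, are imprecise at this depth.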
